A study of Mus musculus with 14 samples.

Results

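Microexons are internal exons so short that they add only a handful of amino acids to a protein. In vertebrates many of them are included mainly in neurons, where the SR-related protein SRRM4 promotes their inclusion through UGC-containing sequence just before the exon, while the polypyrimidine tract-binding protein PTBP1 holds many of them back in other cells. Their peptides typically lie on the surface of proteins of vesicle traffic, the cytoskeleton and cell adhesion, and exons whose length is a multiple of 3 can be used or skipped without a shift of the reading frame.

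The microexons described here were cassette exons (internal exons that are either included or skipped) of mouse spinal cord, selected on measured length and coverage: an exon length of at most 30 nt and at least 10 junction reads in each of 2 RNA-seq libraries. Of 13189 cassette exon events in the tables, 9396 were covered and 573 were no longer than 30 nt. Both conditions were met by 409 events, or 4.353% of the covered events, which lay at 386 different exons of 342 genes, and 164 short events were not covered. An exon can appear in more than 1 event when its flanking exons differ, which was the case for 20 microexons. At the edge of the length limit, 51 events of 30 nt had a median inclusion of 70% (male library) and 81.15% (female library), and the medians of 11 events of 31 nt were 81.35% and 86.8%. At the edge of the read limit, 6 short events whose lower read number was 9 had a median of 42.04% for the mean of both libraries, and 2 events with 10 reads had 100%.

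RNA was measured in the whole spinal cord (WSC) of mice that carry a transgene for wild-type human SOD1, Tg(SOD1)2Gur/J, on a mixed B6/SJL background at 12 weeks of age, with 1 poly(A)-selected library of male and 1 of female tissue. How many mice went into each library is not given in the sources used here. Any difference between them is a difference between 2 libraries, and the sexes were not tested. NOVA CLIP, which sequences RNA fragments crosslinked to the NOVA splicing regulators, came from C57BL/6 mice of 3 months. In motoneurons (MNs) it used anti-GFP antibodies and a GFP-NOVA2 fusion driven by the *Chat* promoter in hemizygous mice of lines Chat:GFP-Nova #6 and #17 (4 libraries of pooled spinal cords each), and in wild type WSC it used an anti-Nova serum against the endogenous proteins (4 libraries). Antibody, fusion protein, pooling and cell type therefore change together between MN and WSC CLIP and cannot be told apart. Barcode design differs in part with them. Replicates 1 and 2 of each MN line had a short barcode, and replicates 3 and 4 and all WSC libraries a long one. Mean fragment length was 29.81 to 37.0 nt in short-barcode MN, 37.23 to 53.86 nt in long-barcode MN and 45.34 to 48.08 nt in WSC libraries.

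The 2 RNA-seq libraries held 72006019 and 65625173 reads on genes, and microexon junctions took 90944 reads of the male and 78312 of the female library, which is 4.23% and 4.092% of all cassette junction reads. A microexon event had a median of 110 and 88 junction reads and a range from 10 to 3468 and from 10 to 3242. The summed levels of marker genes were 2536 and 2600 RPKM (reads scaled to exon length and to library size) for 5 neuronal genes, 7360 and 7977 for 4 oligodendrocyte genes and 834.6 and 861.7 for 4 astrocyte genes. Motoneuron markers summed to 55.1 and 67.28 RPKM, whereas 3 skeletal muscle markers summed to 0.6126 and 0.9159, with *Myh4* at 0 in both. In such bulk tissue, fewer cells of a type and less RNA per cell cannot be told apart, and an inclusion rate is an average over neurons and glia.

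Of the 386 microexons, 308 (79.79%) had both ends annotated as exon ends in GENCODE for mm9, and 282 (73.06%) were annotated within coding sequence. A total of 37 genes held more than 1 microexon, and 7 held 3, among them *Kif1a* and both CLASP genes of microtubule biology, the dynactin subunit gene *Dctn1* and the neurexin gene *Nrxn2*. To show what these exons look like, sequences are given for frame-preserving microexons with many reads and intermediate inclusion. Each is read in the direction of transcription from the mm9 (NCBIM37) genome, with the last 60 nt of the upstream intron and the first 20 nt of the downstream intron in lower case and the whole microexon in capitals.

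Cltc, 21 nt, chr11:86514563-86514583, minus strand: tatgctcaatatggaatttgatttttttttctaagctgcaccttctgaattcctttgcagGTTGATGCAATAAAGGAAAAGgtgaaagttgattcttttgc
Kif1a, 27 nt, chr1:94962129-94962155, minus strand: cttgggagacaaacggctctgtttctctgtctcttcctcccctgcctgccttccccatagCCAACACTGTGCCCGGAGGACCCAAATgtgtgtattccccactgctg
Pls3, 27 nt, chrX:73045056-73045082, minus strand: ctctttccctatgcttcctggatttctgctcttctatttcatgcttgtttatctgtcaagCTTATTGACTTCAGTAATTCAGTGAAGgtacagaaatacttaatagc
Kif21a, 21 nt, chr15:90795406-90795426, minus strand: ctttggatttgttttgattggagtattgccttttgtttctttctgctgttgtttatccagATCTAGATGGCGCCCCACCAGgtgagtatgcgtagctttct
Sh3glb2, 12 nt, chr2:30204746-30204757, minus strand: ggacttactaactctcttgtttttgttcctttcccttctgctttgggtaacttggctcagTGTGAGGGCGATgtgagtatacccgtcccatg
Nckap1, 18 nt, chr2:80411370-80411387, minus strand: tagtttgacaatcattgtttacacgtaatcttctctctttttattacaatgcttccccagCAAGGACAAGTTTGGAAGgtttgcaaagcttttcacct
Nrcam, 30 nt, chr12:45667827-45667856, plus strand: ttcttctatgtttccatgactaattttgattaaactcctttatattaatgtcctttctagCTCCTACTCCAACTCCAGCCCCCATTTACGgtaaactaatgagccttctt
Acly, 30 nt, chr11:100364474-100364503, minus strand: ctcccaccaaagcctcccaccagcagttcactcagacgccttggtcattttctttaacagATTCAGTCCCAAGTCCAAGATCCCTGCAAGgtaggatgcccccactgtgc

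In 6 of these 8 sequences the 60 nt of intron hold a TGC, the DNA letters of the UGC motif. Its nearest copy began 5 nt before the exon in *Cltc*, 11 nt in *Nckap1*, 14 nt in *Kif1a*, 17 nt in *Kif21a*, 19 nt in *Pls3* and 22 nt in *Sh3glb2*. The sequences of *Nrcam* and *Acly* hold none in these 60 nt.

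Several microexons occur at matching places in paralogous genes, and 5 such groups are printed because the exon sequence is shared while the inclusion rates, given further on, are not always so.

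Ppp3ca, 30 nt, chr3:136594975-136595004, plus strand: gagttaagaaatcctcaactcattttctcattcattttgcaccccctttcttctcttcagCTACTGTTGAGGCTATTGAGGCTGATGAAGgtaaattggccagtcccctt
Ppp3cb, 30 nt, chr14:21322469-21322498, minus strand: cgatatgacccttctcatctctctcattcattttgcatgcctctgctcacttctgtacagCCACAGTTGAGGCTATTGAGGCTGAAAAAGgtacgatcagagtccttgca
Cpeb2, 24 nt, chr5:43660108-43660131, plus strand: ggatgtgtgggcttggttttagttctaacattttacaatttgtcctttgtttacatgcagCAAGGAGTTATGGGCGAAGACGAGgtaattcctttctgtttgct
Cpeb3, 24 nt, chr19:37180281-37180304, minus strand: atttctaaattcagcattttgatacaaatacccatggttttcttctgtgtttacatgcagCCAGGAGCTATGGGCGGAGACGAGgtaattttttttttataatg
Cpeb4, 24 nt, chr11:31818801-31818824, plus strand: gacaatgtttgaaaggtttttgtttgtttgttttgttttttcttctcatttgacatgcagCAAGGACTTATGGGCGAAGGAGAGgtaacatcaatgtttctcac
Eif4g1, 21 nt, chr16:20674859-20674879, plus strand: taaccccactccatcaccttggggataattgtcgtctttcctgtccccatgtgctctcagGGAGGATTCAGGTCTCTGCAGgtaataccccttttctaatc
Eif4g3, 21 nt, chr4:137651824-137651844, plus strand: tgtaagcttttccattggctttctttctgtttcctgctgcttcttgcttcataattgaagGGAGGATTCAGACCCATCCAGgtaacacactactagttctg
Odz3, 21 nt, chr8:49372487-49372507, minus strand: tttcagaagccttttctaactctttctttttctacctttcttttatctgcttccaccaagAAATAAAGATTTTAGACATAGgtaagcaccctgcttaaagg
Odz4, 21 nt, chr7:104003227-104003247, plus strand: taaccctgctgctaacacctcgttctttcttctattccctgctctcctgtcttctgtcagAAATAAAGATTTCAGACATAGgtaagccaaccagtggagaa
Mef2a, 24 nt, chr7:74389407-74389430, minus strand: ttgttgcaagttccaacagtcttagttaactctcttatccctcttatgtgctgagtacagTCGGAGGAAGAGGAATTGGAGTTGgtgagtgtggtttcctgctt
Mef2c, 24 nt, chr13:83794203-83794226, plus strand: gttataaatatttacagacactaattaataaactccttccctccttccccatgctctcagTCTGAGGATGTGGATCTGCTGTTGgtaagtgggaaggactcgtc

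Counted position by position, the exons of *Odz3* and *Odz4* shared 20 of 21 nt. *Ppp3ca* and *Ppp3cb* shared 26 of 30 nt, *Cpeb2* shared 21 of 24 nt with *Cpeb3* and with *Cpeb4*, *Eif4g1* and *Eif4g3* shared 16 of 21 nt and *Mef2a* and *Mef2c* 17 of 24 nt. In all 3 *Cpeb* genes the same TGC began 5 nt before the exon.

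The length of microexons fell into steps of 3 nt. There were 69 events of 27 nt, 61 of 24 nt, 51 of 30 nt, 46 of 21 nt, 44 of 18 nt and 25 of 15 nt, whereas no other length held more than 16 events. In all, 306 of 409 microexon events (74.82%, 95% Wilson interval 70.39 to 78.78%) had a length that is a multiple of 3, against 55% of 1351 cassette exons of 31 to 60 nt, 43.31% of 7158 of 61 to 250 nt and 41.42% of 478 longer ones. The share of frame-preserving exons was thus higher at each shorter length class, a description over exons that share genes and libraries. The shortest was an exon of 9 nt in *A930037G23Rik*, followed by 9 exons of 12 nt, which included those of *Dnm1* (dynamin 1) and of *Agrn* (agrin), the latter included at 83.45% and 90.12%.

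**Figure D1:**
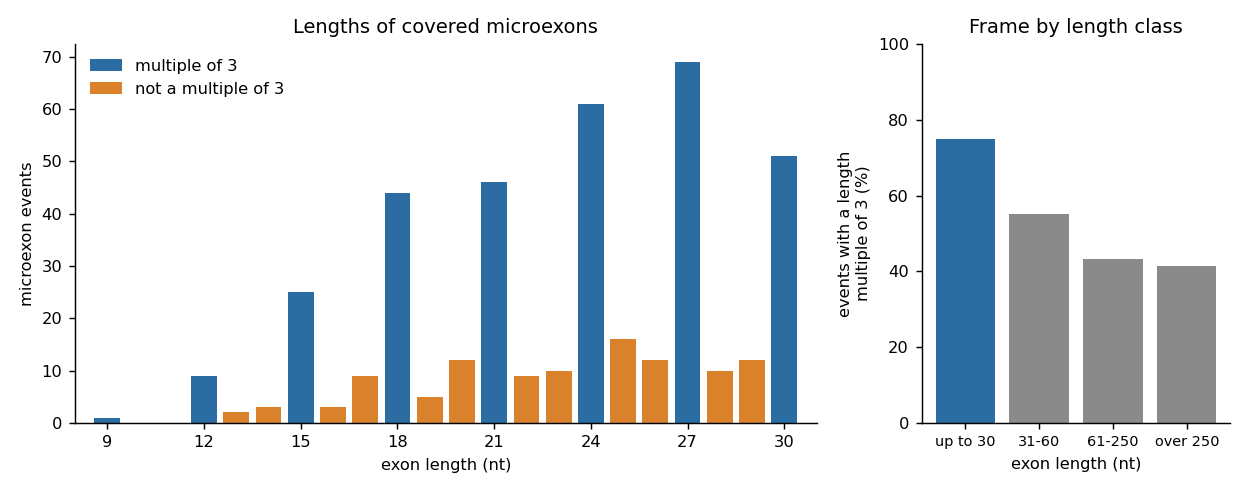
Left, number of microexon events (vertical axis) at each exon length in nt (horizontal axis), with lengths that are a multiple of 3 in a separate colour. Right, percent of covered cassette exon events with a length that is a multiple of 3 in 4 length classes. The share is 74.82% up to 30 nt and 41.42% over 250 nt, and the bars start at 0.

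The reads of the 2 junctions into an exon were averaged, and inclusion was that average divided by the sum of it and the reads that skipped the exon. The median microexon was included at 73.33% in the male and 71.89% in the female library (mean 72.6% ± 1.02, SD, n = 2), with quartiles of 32.35 and 98.53% and of 32.54 and 99.12%. An intermediate rate of 10 to 90% was seen for 206 microexons (50.37%) in the male and 203 (49.63%) in the female library, a rate under 10% for 55 and 58, and one over 90% for 148 in either. Among cassette exons of 31 to 60 nt the intermediate share was 35.68% in both libraries, among those of 61 to 250 nt 24.25% and 24.18%, and among longer ones 21.13% and 23.85%. Microexons were thus the length class most often neither fully included nor fully skipped, and none of these shares was tested.

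Within the microexons, 55.23% and 56.54% of the frame-preserving events had an intermediate rate, against 35.92% and 29.13% of the 103 others. The 82 events at exons without annotation had medians of 29.31% and 29.47%, far below the 80.53% and 81.25% of the 300 coding events. In 73 events exactly 1 of the 2 inclusion junctions had no read, in 1 or both libraries, and their medians of 37.78% and 42.03% were also low. A junction was silent in both libraries in 45 of these events. In a library with such a silent junction the listed exon end was not seen joined, and all inclusion reads came from 1 junction. The average still counts the unread junction, which lowers the rate wherever there are skipping reads. The low medians are therefore set in part by the formula. The 336 events without a silent junction had medians of 76.07% and 75.04%. They include events with no read on either inclusion junction. The introns around microexons had a median of 1565 nt upstream and 1464 nt downstream, against 1889 and 1843 nt for exons of 61 to 250 nt.

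**Figure D2:**
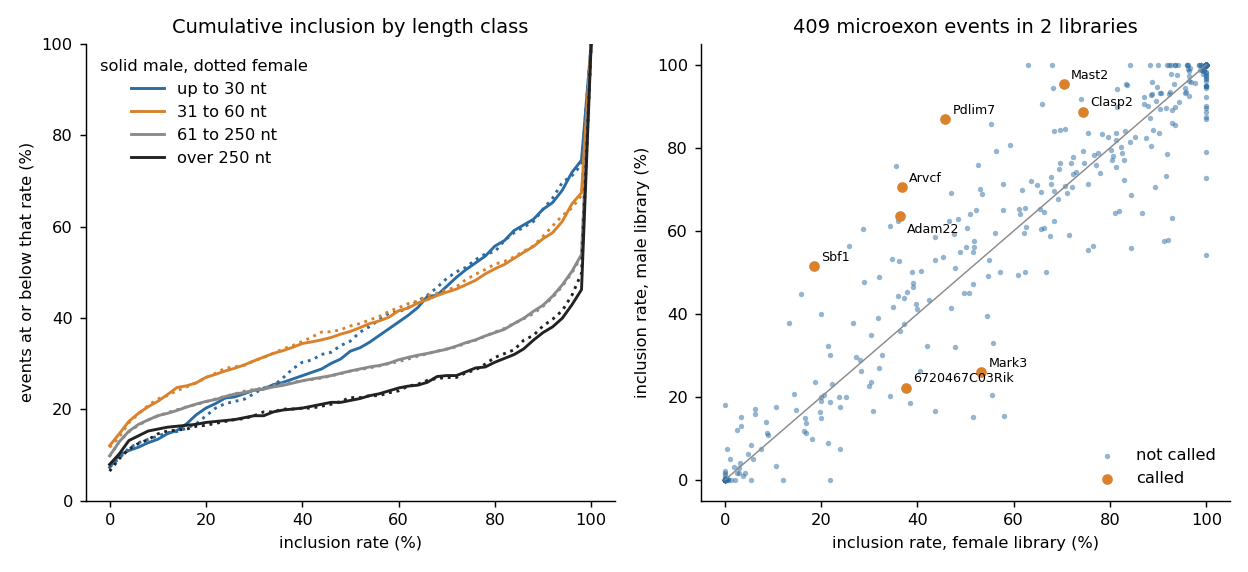
Left, cumulative percent of events (vertical axis) at or below each inclusion rate in percent (horizontal axis) for the length classes; the microexon curve rises most evenly, with a median of 73.33% in the male library. Right, inclusion in percent in the female (horizontal axis) against the male library (vertical axis), 1 point per microexon event, with the 8 called events marked; 59.9% of the events differ by at most 5 points.

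Microexons of membrane traffic genes ranged from full use to near absence. Of 17 microexons in the endocytosis list, 10 had a mean rate between 10 and 90% and 5 a higher one. The 21-nt exon of *Cltc*, the clathrin heavy chain, had 1023 and 1221 reads on its 2 inclusion junctions and 600 on the skipping junction in the male library, a rate of 65.16% (95% Wilson interval 62.87 to 67.37%), and 65.45% in the female library. By contrast, the 12-nt exon of *Dnm1*, the neuronal dynamin that pinches off vesicles, had no skipping read beside 3208 and 2458 inclusion reads, and the 30-nt exon of its widely expressed paralog *Dnm2* was included at 4.032% and 3.2%. The clathrin adaptors *Picalm* and *Snap91* had exons included at 89.0% and 92.94% and at 97.33% and 96.3%. Outside the list, 2 of the 3 microexons of *Sh3glb2*, a membrane-curving endophilin-like protein, stood at 76.33% and 71.89% (12 nt) and at 83.97% and 83.14% (15 nt), and its 24-nt exon at 100% in both.

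The 26 microexons of microtubule and motor genes had the lower medians of 52.67% and 48.74%, and 25 of them preserved the frame. *Kif1a*, the kinesin that carries synaptic vesicle precursors along axons, held 3. Its 27-nt exon printed above was included at 75.91% (73.01 to 78.6%) and 76.98%, while another 27-nt exon stood at 11.72% and 16.44% and a 24-nt exon at 8.358% and 5.541%. The 2 latter events had the same number of skipping reads, 614 and 554, so that their rates are not independent. The paralog *Kif1b* had an 18-nt exon included at 56.12% and 51.79% and a 27-nt exon with a silent junction at 0.1656% and 0%. The 21-nt exon of *Kif21a*, a kinesin that restrains microtubule growth, was included in about every other transcript, at 49.23% and 54.62%.

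The plus-end binding proteins CLASP1 and CLASP2 shared this graded pattern. The 24-nt exon of *Clasp1* at chr1:120438252-120438275 was included at 63.98% and 50.86%, and that of *Clasp2* at chr9:113787868-113787891, with 17 of 24 identical nt, at 62.3% and 46.63%. The 21- and 18-nt exons of *Dctn1*, the dynactin subunit that binds microtubules, were nearly always used (99.06% and 96.22%, 99.32% and 96.68%), and its 15-nt exon was included at 64.71% and 81.82%.

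In the actin and spectrin list, 25 microexons had medians of 81.43% and 81.15%. The WAVE regulatory complex, which starts branched actin growth, was represented by 3 of its subunits. *Abi1* had no skipping read beside 526 and 403 inclusion reads, its paralog *Abi2* was at 71.28% and 57.81%, and *Nckap1* was at 72.33% (65.85 to 77.99%) and 82.82% (78.25 to 86.64%), a difference whose unadjusted p of 0.00592 by Fisher's exact test did not pass the adjustment over all exons. *Pls3*, an actin-bundling plastin, was at 70.57% and 72.07%. The 15-nt exon of *Spna2* (*Sptan1*, the alpha II spectrin chain) was at 97.89% and 99.22%, and the 27-nt exon of the motor *Myo6* at 93.23% and 90.27%. The event with the most reads of all, a 20-nt exon in the myosin light chain gene *Myl6*, had a silent upstream junction in the female library and a rate of 0.3327% and 0.2317%.

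Adhesion and axon guidance receptors held the largest group, 32 microexons, all of a length that is a multiple of 3, of which 26 had an intermediate mean rate. Among adhesion molecules of the immunoglobulin family, the 30-nt exon of *Ncam1* was included at 64.01% and 61.31%, the 30- and 18-nt exons of *Nrcam* at 58.87% and 67.63% and at 44.97% and 50.65%, and the 18-nt exon of *Nfasc*, which anchors the node of Ranvier, at 42.47% and 39.74%. The receptor phosphatase *Ptprf* had a 27-nt exon at 50.35% and 40.66% and an 18-nt exon at 23.61% and 18.82%.

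Among the presynaptic neurexins, which bind partners across the synapse, the 24-nt exon of *Nrxn2* was included at 59.6% (49.75 to 68.73%) and 62.04% (50.52 to 72.82%). The 27-nt exon of *Nrxn3* was at 69.4% and 65.66%. The teneurins *Odz3* (*Tenm3*) and *Odz4* (*Tenm4*), with 1 differing base in the exon, were at 90.48% and 65.91% and at 68.75% and 84.44%, and here the order of the paralogs turned between the libraries. Among their binding partners, the latrophilins, the 18-nt exon of *Lphn1* had no skipping read, while the 18-nt exon of *Lphn2* was included at 26.32% and 40.58% and the 27-nt exon of *Lphn3* at 20.35% and 34.39%.

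Microexons of ion channels and of the release machinery were used more often than not. The 20-nt exons of the calcium channel beta subunits *Cacnb3* and *Cacnb1*, which do not preserve the frame, were included at 100% in both and at 100% and 92.16%. The 14 microexons of the synaptic vesicle list had medians of 91.29% and 90.97%, with 8 over 90%. They included both exons of *Cadps*, a priming factor of dense-core vesicles, at 95.87% and 96.9% (21 nt) and at 89.86% and 93.48% (18 nt), and the 27-nt exon of the active zone scaffold *Pclo*, at 97.52% and 100%.

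Among kinases and phosphatases, 16 of 20 microexons had an intermediate mean rate, and all preserved the frame. The catalytic subunits of calcineurin, the calcium-dependent phosphatase, differed widely within their family. The 30-nt exon of *Ppp3ca* was included at 18.95% (16.88 to 21.28%) and 20.02% (17.65 to 22.62%), whereas the matching exon of *Ppp3cb* had no skipping read beside 655 and 501 inclusion reads. A separate 27-nt exon of *Ppp3cb* was at 1.786% and 2.983%, and the 27-nt exon of *Ppp3cc*, with 34 and 47 junction reads, at 15.25% and 51.61%. The kinase *Mink1* had a 24-nt exon at 65.54% and 62.25%.

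Regulators of translation and transcription completed the set. The 21-nt exons of the scaffold proteins *Eif4g1* and *Eif4g3*, which bring ribosomes to capped mRNA, were included at similar rates of 69.23% and 71.0% and of 65.22% and 61.01%. The cytoplasmic polyadenylation proteins followed the order *Cpeb2* (94.57% and 89.81%), *Cpeb3* (84.0% and 68.35%) and *Cpeb4* (75.76% and 52.63%) in both libraries, with overlapping intervals between *Cpeb3* and *Cpeb4*. The MEF2 transcription factors were at 79.27% and 56.3% for *Mef2a*, 68.89% and 53.33% for *Mef2c* and 84.31% and 88.89% for *Mef2d*. The calmodulin-binding activators *Camta1* and *Camta2* were near full inclusion, at 98.61% and 96.49% and at 92.89% and 88.79%.

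**Figure D3:**
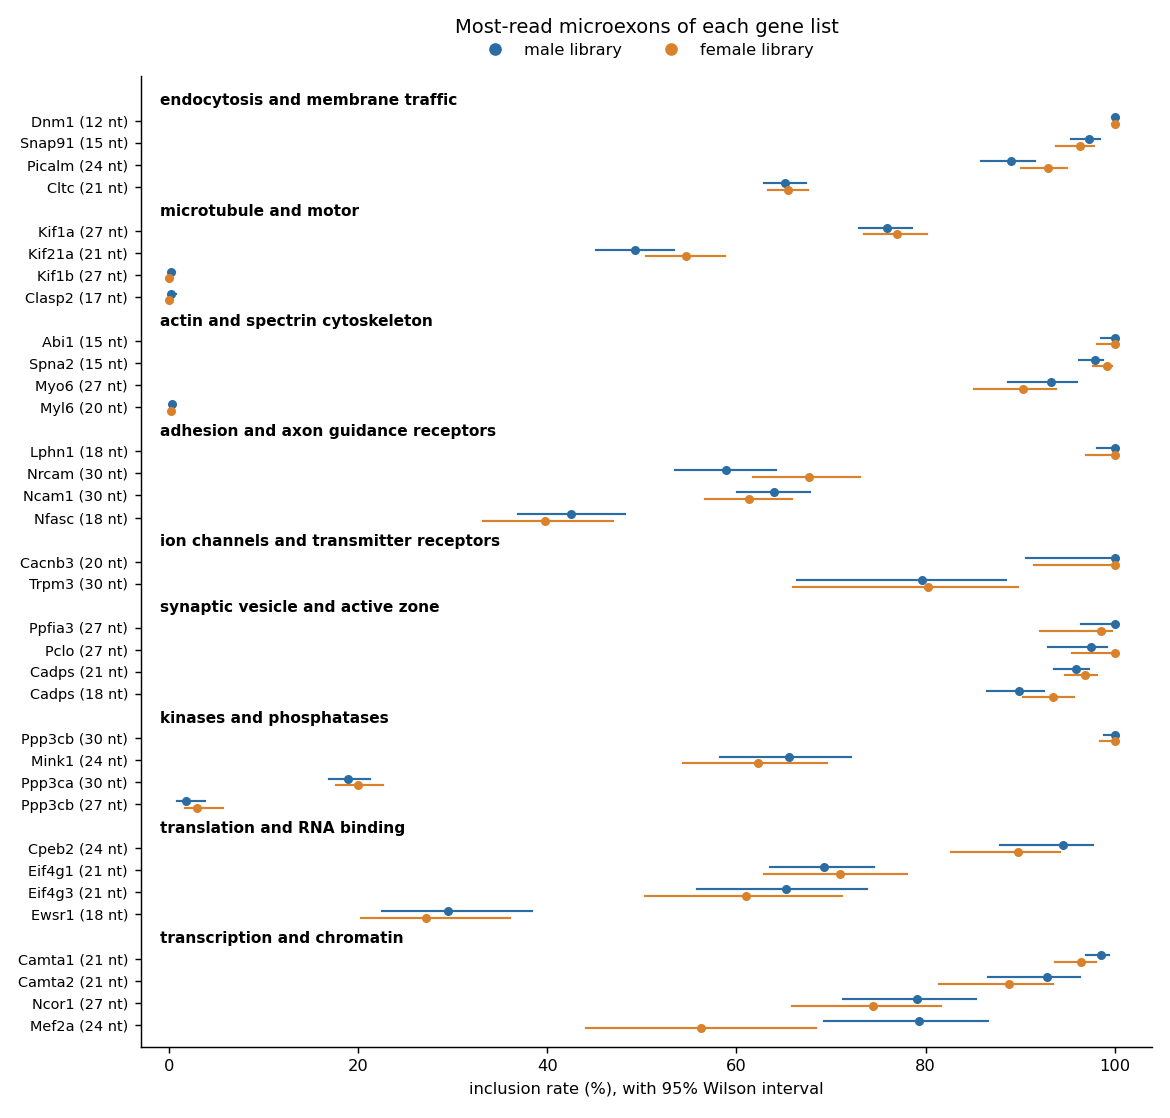
Inclusion rate in percent (horizontal axis) of the named microexons of each gene list (vertical axis), with 1 point per library and its 95% Wilson interval. The exons of *Dnm1*, *Abi1* and *Ppp3cb* (30 nt) stand at 100% in both libraries.

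Further families held microexons of unlike use. In *Ptk2*, the focal adhesion kinase gene, a 21-nt and an 18-nt exon were included at 56.0% and 50% and at 26.96% and 32.08%, and another 21-nt exon had a silent junction (20% in both). The liprin-alpha genes, which scaffold the active zone, had a 27-nt exon without skipping in *Ppfia1*, a 30-nt exon of the same gene at 48.84% and 32.0%, and the 27-nt exon of *Ppfia3* at 100% and 98.53%. The 27-nt exon of the Rac activator *Dock4* was at 60.42% and 28.74% and that of the kinase *Mark2* at 32.35% and 21.43%. In *Nrxn2*, the 27-nt exon was at 80.72% and 59.26% and the 30-nt exon at 63.04% and 92.86%, in opposite order between the libraries. The 27-nt exons of *Odz3* and *Ptprs* were at 94.29% and 68.18% and at 49.33% and 60.98%. Also mostly skipped were the 18-nt exon of *Ewsr1*, an RNA-binding protein (29.55% and 27.2%), and the 21-nt exon of the dynactin subunit *Dctn4* (23.19% and 22.19%).

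Of the 12 microexons with the most reads and a mean rate of 20 to 80%, 2 had a silent junction and are therefore uncertain as cassettes, a 19-nt exon of *Tcf25* (77.02% and 80.42%) and a 23-nt exon of *Pcbp2* (78.01% and 80.55%). The 30-nt exon of *Acly*, the enzyme that makes acetyl-CoA from citrate, was mostly skipped, at 30.07% and 32.54%. Over all lists, 147 of the 159 microexons in a listed gene preserved the frame, and 102 had an intermediate mean rate, against 142 and 95 of the 227 microexons in other genes. The lists were drawn up with earlier results of these data known, so the contrast is a description.

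Between the male and female libraries, the median absolute difference of a microexon was 3.25 percentage points, against 1.081 points for all covered events. A difference of at most 5 points was seen for 245 of 409 microexon events (59.9%) and for 71.37% of all covered events. By a two-sided Fisher's exact test per event, with Benjamini-Hochberg adjustment over all 9396 covered events at FDR ≤ 0.1, 8 microexons were called (1.96%), against 1.29% of all covered events. An unadjusted p under 0.05 was reached by 51 microexons (12.5%) and by 752 of all events (8.0%). At these counts the share called was near that of all events, and the test compares 2 libraries. Rates of 10 to 90%, where counting error in points is largest, were held by 50.37% and 49.63% of microexon events. Among all covered events the shares were 26.87% and 26.93%. The part of this in the larger differences of microexons was not tested.

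Of the 8 events, 6 had the higher inclusion in the male library. The 17-nt exon of *Pdlim7*, which links actin to kinases, went from 86.84% to 45.79% (exact adjusted p = 0.0152), and the 24-nt exon of *Sbf1*, a myotubularin-family pseudophosphatase, from 51.43% to 18.45% (exact adjusted p = 0.0503). The 21-nt exon of the microtubule-associated kinase *Mast2* was at 95.35% and 70.41% (exact adjusted p = 0.00289), with 4 and 29 skipping reads. The remaining 3 were the 18-nt exon of the catenin *Arvcf* (70.49% and 36.73%), the 24-nt exon of *Clasp2* at chr9:113767699-113767722 (88.69% and 74.39%), and 1 event of the 30-nt exon of *Adam22*, a receptor of secreted LGI proteins, which had a silent junction (63.49% and 36.41%). Higher in the female library were the 21-nt exon of *6720467C03Rik* (22.27% and 37.65%, exact adjusted p = 0.00803) and the 27-nt exon of the microtubule affinity-regulating kinase *Mark3* (25.96% and 53.27%, exact adjusted p = 0.0866). The other events of the same *Adam22* exon were not called. The calls for *Mark3*, *Adam22* and *Clasp2* were lost when no minimum of reads was set (adjusted p = 0.103, 0.113 and 0.108).

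Regulators known to act on microexons were expressed in both libraries. *Srrm4* was at 2.929 and 2.206 RPKM and its paralog *Srrm3* at 6.458 and 6.277 RPKM. *Ptbp1*, which is mainly non-neuronal, was at 10.43 and 8.555 RPKM, below its neuronal paralog *Ptbp2* at 29.92 and 29.97 RPKM. *Rbfox1*, *Rbfox2* and *Rbfox3*, which bind TGCATG, were at 61.18 and 54.53, 26.13 and 22.31, and 36.17 and 31.92 RPKM, and *Nova2* at 5.529 and 3.735 RPKM, while *Nova1* was not analysed here. The genes that hold a microexon had median levels of 16.64 and 16.25 RPKM, against 12.96 and 12.85 RPKM for 4570 other genes with a covered cassette exon.

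The sequence around microexons was compared with that of all 8977 different covered cassette exons, on the transcribed strand only. Within the last 30 nt of the upstream intron, TGC was present beside 55.44% of 386 microexons and 42.42% of all exons, whereas within 100 nt the shares were close, at 84.2% and 80.61%. Microexons of intermediate mean inclusion had TGC in the last 30 nt most often (63.96% of 197), those over 90% less (50.38% of 133) and those under 10% least (37.5% of 56). The pyrimidine motif TTCT, which resembles a binding site of PTB proteins, was found within 100 nt upstream of 84.72% of microexons and 67.7% of all exons, and of 89.62% of frame-preserving but 70.1% of other microexons. In the last 30 nt it was beside 57.25% of microexons and 44.06% of all exons, with no such gap between frame-preserving (57.09%) and other microexons (57.73%). The last 100 nt of the upstream intron were richer in C and T (median 61% against 55% for exons of 61 to 250 nt), and the nearest AG lay farther from the splice site, at a median of 49 against 30 nt.

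Downstream, the RBFOX motif TGCATG, which also contains TGC, lay within 100 nt of 11.92% of microexons and 5.837% of all exons, with 14.53% of frame-preserving and 4.124% of other microexons. The NOVA motif YCAY, where Y stands for C or T, showed no such contrast over all microexons, with 80.83% against 79.17% upstream and 76.68% against 75.72% downstream. For microexons of intermediate inclusion the downstream share was 83.25%, against 78.23% of the 1649 exons of 61 to 250 nt with such inclusion, but within 50 nt the order turned, with 49.75% against 54.34%. All of these shares are descriptions of letters in a window, and no test was made.

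**Figure D4:**
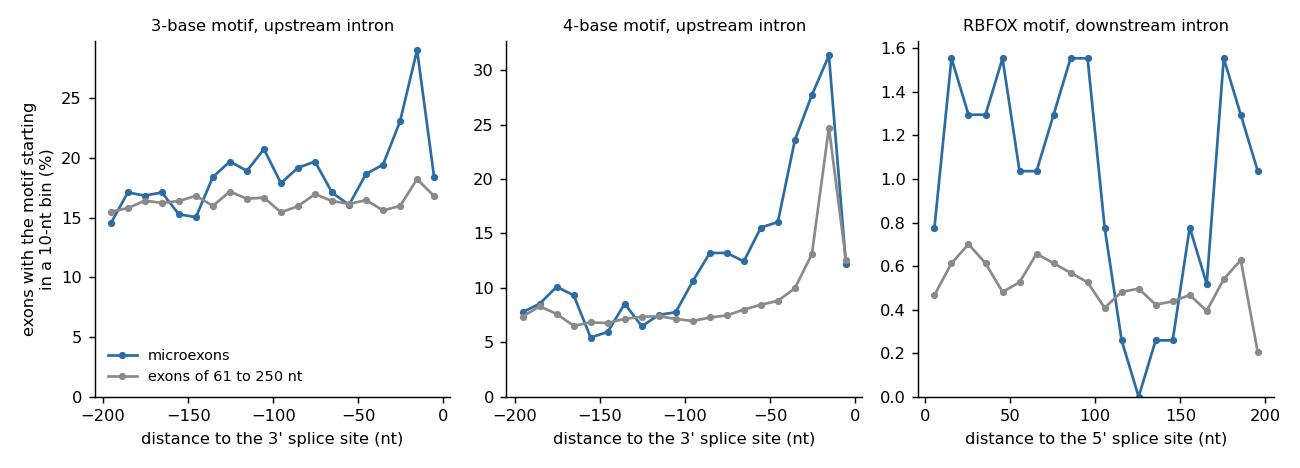
Percent of exons with a motif starting in each 10-nt step of distance from the splice site, given in nt on the horizontal axis, for 386 microexons and 6851 cassette exons of 61 to 250 nt. Panels show the 3-base UGC motif and the 4-base pyrimidine motif in the upstream intron and the RBFOX motif in the downstream intron; the first is most frequent 11 to 20 nt before microexons, at 29.02% against 18.22%.

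NOVA CLIP tags were counted on the transcribed strand in a window of the microexon and 400 nt on each side. Depth differed between the groups, with 65961 to 871804 unique tags in the 8 MN libraries and 2213104 to 6095995 in the 4 WSC libraries. In WSC, 342 of 386 microexon windows had a tag and 127 had at least 10, and 10 windows held 47.29% of the 8101 tags. Summed over its 4 libraries, MN line 6 had 537 tags and line 17 had 786, so that 8 and 14 windows reached 10 tags. In the smallest MN library 1 tag was worth 15.16 CPM (tags scaled to the size of the library), so that a window without a tag there could not be told from one at the WSC level of most microexons.

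The windows with the most WSC tags, named after their values were seen, were those of the 30-nt exon of *Adam22* with 945 tags, the 21-nt exon of *Dtna* (dystrobrevin alpha of the dystrophin complex) with 925, the 25-nt exon of *2210010L05Rik* (*Mfsd6*) with 581 and the 18-nt exon of *Atp6v0a1* (a subunit of the vesicular proton pump) with 355. Around *Adam22*, CPM were 51.57, 59.22, 50.79 and 55.13 in WSC, 39.54, 64.03, 60.51 and 35.24 in line 6 and 30.32, 62.54, 65.89 and 39.0 in line 17. The groups overlapped, and no difference was called. Of the 127 microexon windows with at least 10 WSC tags, 77 (60.63%) had more tags downstream than upstream, against 48.33% of 2628 windows of other exons. No microexon window but 263 of the others had equal numbers, and without these ties the share of the others was 53.7%. Background work on NOVA links downstream binding with inclusion and upstream binding with skipping. Windows with at least 10 WSC tags were found for 39.09% of microexons of intermediate inclusion, 27.07% of those over 90% and 25% of those under 10%.

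Microexon windows took 5.67 to 8.132% of all window tags in the 8 MN libraries and 4.276 to 4.845% in the 4 WSC libraries, and these ranges did not overlap. In the other windows, tags within the exon itself made up 19.91 to 28.12% in MN and 40.01 to 42.99% in WSC libraries, so that the denominators differ too, and their part in the contrast was not tested.

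To compare MNs and WSC window by window, an edgeR quasi-likelihood test was fitted to 1246 windows with at least 30 tags over all libraries and a tag in at least 4, scaled by all tags of a library. Only 60 of 386 microexon windows passed this filter, and the WSC libraries supplied 8101 of the 9424 tags in microexon windows, so the 60 are not a sample of all microexons. Of these 60, 17 were called at FDR ≤ 0.1 (28.3%), against 42.5% of all windows, with 11 higher in MNs (18.3%, background 13.0%) and 6 lower (10%, background 29.5%). Among the higher, the windows of *Dync1i2* and *Ptprf* reached 30 tags only with their MN tags. Among the lower, those of *Snap91*, *Ncor1*, *Plec1* and *Lysmd4* passed only through WSC. These calls support nothing, so the counts and shares by direction are a description. The split by direction also depended on the scaling. With TMM factors, 21 were called (35.0%, all windows 54.7%), 3 higher (5.0%, all windows 3.53%) and 18 lower (30%, all windows 51.2%). The median log2 fold change of all windows went from -0.55 to -1.40. TMM gave many false calls on counts simulated in proportion to total tags, a setting that favours total tags. Which scaling is right for the real counts, and so the split by direction, was not settled. Without the deep library line 6 replicate 3, 11 of 56 microexon windows were called, 7 higher and 4 lower, against 376 of all 1212 windows. Without line 17 replicate 4, 11 of 53 were called, 9 higher and 2 lower, against 219 of 1183. With the long-barcode libraries only, 8 of 57 were called, 4 higher and 4 lower, against 423 of 1223. No window of the 1246 was called between the lines (0.0%), by edgeR with either scaling, and 3 microexon windows had an unadjusted p under 0.05 there. With 537 and 786 tags over all microexon windows, the lines are too shallow for this to show that they agree.

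A second test asked whether a window took a larger share of the tags of its own gene, which takes out the level of the transcript. A shift of tags between exons and introns, as seen above in the other windows, is not taken out. Tags within the exon were only 1.562 to 10.45% of microexon window tags in MN and 3.446 to 4.044% in WSC libraries. The part of such a shift in the calls of either test, and in their contrast with all windows, was not tested. The shares printed below divide the window's tags by these plus the gene's tags outside the windows of all its covered cassette exons. Tags in the gene's other cassette windows are thus left out of the printed shares. The second test called 8 of 60 microexon windows (13.3%), against 18.6% of 1225 windows, with 7 higher in MNs (11.7%, background 9.31%) and 1 lower (1.67%, background 9.31%). The 7 include *Dync1i2* and *Ptprf*, which passed the minimum of tags only with their MN tags, so these counts are a description too. TMM factors gave 9 calls here, 8 higher and 1 lower (13.3% and 1.67%, against 9.55% and 9.14% of all windows). Leaving out line 6 replicate 1, line 6 replicate 3 or line 17 replicate 4 gave 5 calls each among microexon windows, where all windows gave 201 of 1214, 135 of 1192 and 78 of 1163.

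The windows higher in MNs included those of 2 motor protein genes. The 27-nt exon of *Kif1a* at chr1:94931123-94931149, the one mostly skipped in WSC, had 4.125, 2.953, 4.602 and 4.067 CPM in WSC. In MNs the values were 49.42, 21.34, 9.682 and 0 in line 6 and 15.16, 56.29, 0 and 10.32 in line 17. The short-barcode MN libraries held the values 49.42, 21.34, 15.16 and 56.29, and the long-barcode ones 9.682, 0, 0 and 10.32. The WSC libraries all had long barcodes, so the MN excess here goes in part with the barcode design. All MN libraries with a tag were above WSC, and 2 without a tag were below. The log2 fold change of this window was 1.92 ± 0.40 (SE, edgeR adjusted p = 3e-05). Its share of the *Kif1a* tags, without those in other cassette windows, was 7.557% in MNs and 0.8847% in WSC (log2 difference 3.01 ± 0.47, edgeR adjusted p = 1.74e-06). The 18-nt exon of *Dync1i2*, the intermediate chain of cytoplasmic dynein, was included at 18.74% and 21.82% in the RNA-seq. Its window had 19 tags in MNs and 25 in WSC, or 9.389 and 1.441 CPM, and 6.96% and 1.238% of the tags of the gene. It reached the minimum of 30 tags only with its MN tags, so these values are a description and its calls support nothing. Only 5 of 8 MN libraries had a tag there, each above all WSC libraries.

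Synaptic and traffic genes were also among the higher windows. *Atp6v0a1* had 34.1 CPM in MNs and 20.46 in WSC (log2 0.81 ± 0.25, edgeR adjusted p = 0.00922), and 14.38% against 8.811% of the tags of the gene (edgeR adjusted p = 0.0645). Its 8 MN libraries ranged from 21.34 to 136.4 and its 4 WSC libraries from 17.09 to 21.41 CPM, so that they overlapped by 1 library. The values 88.95 CPM in line 6 replicate 1 and 136.4 in line 17 replicate 1 came from short-barcode libraries. All WSC libraries had long barcodes, and the part of barcode design in the MN excess was not tested. With TMM factors or DESeq2 size factors the first difference was close to 0. The 18-nt exon of *Cadps* (7.906 and 3.169 CPM), the 18-nt exon of *Ptprf* (4.447 and 1.671), the 30-nt exon of the postsynaptic scaffold *Tanc2* (5.436 and 2.075) and the 28-nt exon of *Nktr*, a cyclophilin-related splicing-speckle protein (6.424 and 1.844), were higher in both tests. The *Ptprf* window reached the minimum of 30 tags only with its MN tags, so its calls support nothing.

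The 24-nt exons of *Slit2*, a repulsive axon guidance ligand (9.883 and 2.247 CPM), of *Nrbp1* (8.4 and 4.264) and of *Clasp2* (18.28 and 11.81) were called higher by tags but not as a share of their gene. With TMM factors only 3 of 60 microexon windows were called higher by tags, against 11 with total tags. Most calls of higher tags named here and above thus depend on the scaling.

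Of the 6 windows called lower in MNs, those of *Snap91*, *Ncor1*, *Plec1* and *Lysmd4* had at most 5 MN tags and passed the minimum of tags only through WSC, so their values are a description and their calls support nothing. That of *2210010L05Rik* had 16.8 CPM in MNs and 33.48 in WSC (log2 -0.98 ± 0.29, edgeR adjusted p = 0.00622), and its share of the gene was 21.66% and 22.29%. *Snap91* had 5 MN tags and 118 WSC tags, a ratio of CPM of 0.3633 (exact 95% counting interval 0.1158 to 0.8721). *Ncor1*, a nuclear corepressor, had 2 MN tags and a ratio of 0.2638 (0.03129 to 0.9922), *Plec1* (*Plec*, the linker plectin) 1 MN tag and 0.2199 (0.005429 to 1.299), and *Lysmd4* 1 MN tag and 0.1559 (0.003878 to 0.9056). The interval of *Plec1* includes 1.

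The sixth, *Dtna*, had 40.03 CPM in MNs and 53.3 in WSC (log2 -0.48 ± 0.22, edgeR adjusted p = 0.0848) and 7.364% against 11.79% of the tags of its gene (log2 -0.68 ± 0.185, edgeR adjusted p = 0.00671). The direction of the first value turned when tags with the same start were counted once (log2 0.96, edgeR adjusted p = 0.00636). In the RNA-seq this 21-nt exon was included at 32.99% and 55.68%.

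**Figure D5:**
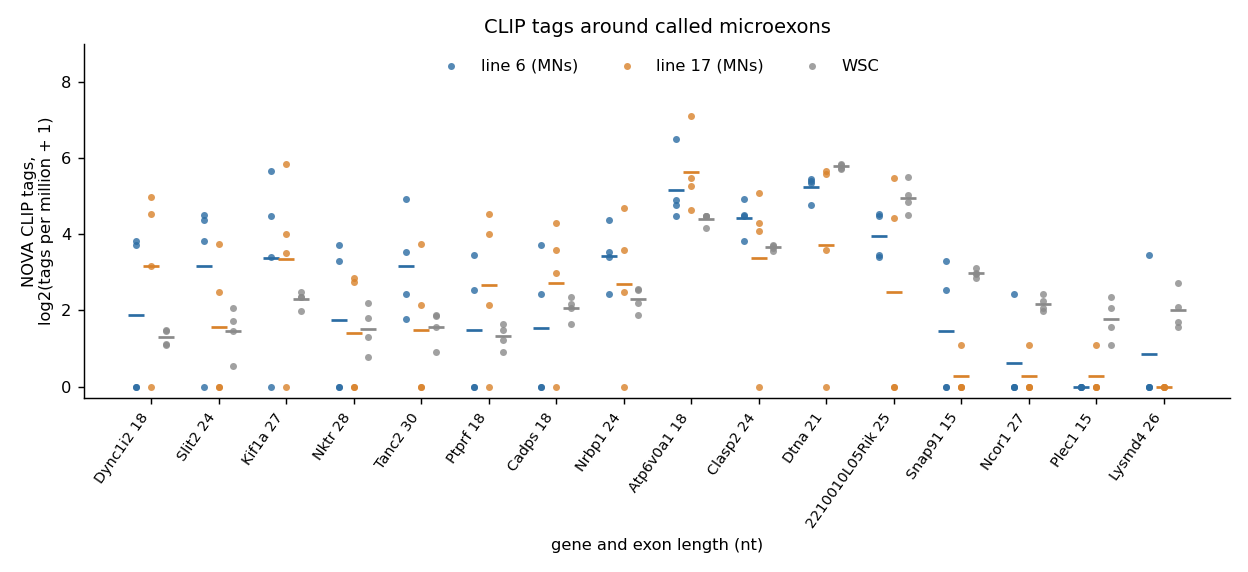
NOVA CLIP signal as log2(CPM + 1) on the vertical axis for 16 of the 17 microexon windows called by tags, with 1 point per library for line 6, line 17 and WSC and a short bar for the mean of the 4 libraries of each group. WSC points lie close together, while MN points spread from 0 upward.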

How the data were processed

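Only the steps that bear on microexons are given. The members and the gene lists were chosen with earlier results of these data known. For RNA-seq, the authors trimmed paired reads, mapped them to mm9 and exon junctions with OLego, kept unambiguous reads and, with Quantas, deposited raw counts per gene and per exon junction, without normalization, and RPKM per gene computed from those counts. For CLIP, the authors mapped reads to mm9 with Novoalign, removed mispriming reads and collapsed reads by random barcode, and deposited 1 line per unique tag, whose score column was not used. The label of line 6 replicate 2 also names mm10, and its tags were treated as mm9. No strand was used in the RNA-seq counts as far as the sources used here state, so antisense reads could not be told apart.

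Inclusion rates, 95% Wilson intervals and Fisher's exact tests on the mean of the 2 inclusion junctions, rounded, and the skipping count were computed in Python 3.11.15 with scipy 1.17.1 and pandas 2.3.3. Reads carry no molecular identifiers, so intervals cover counting error only. A read across a microexon often spans both inclusion junctions, hence the mean and not the sum. Gene lists were matched by symbol or, for older symbols, by gene ID through the RefSeq table of another build, used for names only, and 712 of 732 genes were found, 52 of them by ID. Named microexons were, in each list, up to 4 with the most junction reads, the 12 with the most reads at a mean rate of 20 to 80%, all in paralog families with more than 1, up to 8 called between libraries, and up to 8 called per direction in each CLIP test, with 1 event per exon. Some named microexons are not reported here.

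CLIP tags in exon windows of 400 nt on each side were counted with their strand and tested with edgeR 4.0.16 in R 4.3.3 (glmQLFit, glmQLFTest and diffSpliceDGE, Benjamini-Hochberg, FDR ≤ 0.1) over 1246 windows. Library sizes were all tags of a library. The design had named TMM factors. On simulated counts TMM gave 318 false calls among 1046 unchanged windows and total tags 21, and total tags were then used. The simulated counts were drawn in proportion to total tags, so scaling by total tags was right there by construction. The simulation therefore cannot decide which scaling is right for the real counts. CLIP replicates were biological replicates by their labels. Alternatives were DESeq2 1.42.0, other scalings, filters, windows, junction formulas, a replicate block and leaving out each library. Replicate numbers were not used to pair the CLIP samples in the main fit. Same-numbered libraries of the 2 lines correlated at 0.111, 0.112, 0.015 and 0.119, and MN with WSC libraries at -0.079 to 0.058. Libraries of different number were not compared, and in the lines the number follows the barcode design, so a shared batch was not tested.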

Additional observations from a re-analysis of the deposited data

Results flagged for a closer look

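Within groups of 4 CLIP libraries, 51 sets of values were examined for a library far from the other 3, and 8 were found. Chance would mark about 1 set in 20 of smoothly spread values, a rate that does not hold for the 5 sets below in which 3 libraries had no tag. The window of the 18-nt exon of *Atp6v0a1* had 88.95 CPM in line 6 replicate 1 against 21.34 to 29.05 in the others of that line, and 17.09 in WSC replicate 1 against 21.16 to 21.41 in the other WSC libraries. The 5 next cases were windows where a library had 1 tag and the other 3 of its line none: *Lysmd4* in line 6 replicate 1 (9.884 CPM), *Ncor1* in line 6 replicate 4 (4.405), and *Snap91*, *Plec1* and *Ncor1* in line 17 replicate 4 (1.147 each). The last was the percent of microexon window tags that lay downstream of the exon, which was 56.81% in WSC replicate 4 and 59.36 to 59.62% in the other WSC libraries. The cause of these values was not tested.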

How the results depend on the processing

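The median inclusion of microexons was 85.5% with the authors' inclusion count, 84.13% with the junction sum not halved, 68.92% and 69.51% with the upstream or downstream junction only, 74.48% with at least 20 reads, 70.4% with 1 event per exon, and, chosen after seeing the data, 75.55% with both junctions read and 80.74% for annotated exons, with 71.89 to 73.33% for either library alone. The share of frame-preserving lengths rose to 79.51% for annotated exons and 80.65% for events without a silent junction. Microexons called between the libraries numbered 28 with the authors' counts (6.846%, all events 4.257%), 25 with the junction sum (6.112%, all events 3.299%) and 5 without a minimum of reads (1.073%, all events 0.7623%). For windows of 50 and 200 nt the motif shares were 68.39 and 95.6% (TGC), 72.54 and 91.71% (TTCT), 5.959 and 18.13% (TGCATG), 60.62 and 94.56% (YCAY upstream) and 46.63 and 95.85% (YCAY downstream), and in the last 30 nt, a window chosen after seeing the data, 55.44% (TGC) and 57.25% (TTCT). The number of microexon windows called by CLIP tags, 17 in the report, was 8 with long barcodes only, 9 with line 6 only, 11 with line 17 only and 11 to 18 when a library was left out. The number called within genes, 8 in the report, was 4 with long barcodes only and 5 to 9 when a library was left out. With the replicate block the counts were 16 and 9, and the block ended the call by tags for *Ncor1* and *Dtna* and within the gene for *Cadps*. Over all windows, the number of calls was 376 and not 529 without line 6 replicate 3 and 219 without line 17 replicate 4. The direction turned for *Atp6v0a1* (log2 -0.012 with DESeq2 size factors, -0.11 with TMM) and *Dtna* (0.96 with same-start tags counted once). TMM and TMMwsp were added after seeing the data. Of the named microexons' other values, 322 of 418 in the CLIP tests kept direction and side of the threshold and 93 no longer passed it. The cause of these shifts was not tested. Depth limits the MN windows, of which 8 (line 6) and 14 (line 17) of 386 held 10 tags.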
